A study of Homo sapiens with 3 samples.

Results

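Cyclins D, E, A and B and the kinases CDK4 and CDK6 were followed in IMR-90 cells, a line of human fetal lung fibroblasts, after knockdown of SETD8. The members were 10 of the 19775 genes named on the array, taken by symbol: CCND1, CCND2, CCND3, CCNE1, CCNE2, CCNA2, CCNB1, CCNB2, CDK4 and CDK6. They were represented by 27 of the 54613 probe sets on the array, all of which are described here. The data hold 3 arrays from 3 cultures. The cells had received one of the SETD8 siRNAs, SETD8-1 or SETD8-2 (SETD8 siRNA 1 and 2 in the plots), or a control siRNA labelled GL3, in each case with the same transfection reagent for 24 h in medium with 10% serum. SETD8, also called PR-Set7 and now KMT5A, is a methyltransferase of histone H4. Each siRNA has 1 array, which gives neither replicate error nor p-value, so a difference cannot be told apart from the spread between cultures.

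Cyclins are the regulatory subunits of cyclin-dependent kinases, and each class acts at its own stage of the cell cycle. D cyclins pair with CDK4 and CDK6 in G1, are induced by growth signals, and start the phosphorylation of the retinoblastoma protein RB. E cyclins pair with CDK2 at the entry into S phase, cyclin A2 pairs with CDK2 and then CDK1 through S and G2, and B cyclins pair with CDK1 to drive mitosis. Transcripts of the E cyclins depend on E2F factors. Those of cyclins A2, B1 and B2 are held down in resting cells by the DREAM complex through a short promoter element called the cell cycle genes homology region, CHR, and are raised in G2 with the help of factor NF-Y at CCAAT boxes.

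The upstream sequences of CCNB1, CCNB2 and CCNA2 are shown because these genes were at least 2-fold lower with either SETD8 siRNA and nearly alike between them, and that of CCNE1 because it is the 1 gene of the E, A and B classes that was not lower by that size. Each is the 250 bases before the RefSeq gene start in GRCh38.p14, written 5′ to 3′ on the gene's own strand. Capitals mark the CHR, searched on both strands in the spelling TTTGAA and in its known variants, which are spelled TTCGAA in some promoters, TTTAAA in other promoters and CTTGAA in still other promoters. They also mark the CCAAT box, which reads ATTGG where it lies on the other strand. The CCNB1 sequence is chr5:69166900-69167149, plus strand. That of CCNB2 is chr15:59104896-59105145, plus strand, that of CCNA2 is chr4:121823884-121824133, minus strand, and that of CCNE1 is chr19:29811741-29811990, plus strand.
CCNB1: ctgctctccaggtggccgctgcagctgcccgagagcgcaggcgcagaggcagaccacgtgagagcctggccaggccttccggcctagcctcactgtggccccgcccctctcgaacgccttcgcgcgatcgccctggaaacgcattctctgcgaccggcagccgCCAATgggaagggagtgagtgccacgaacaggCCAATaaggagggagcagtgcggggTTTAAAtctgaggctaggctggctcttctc
CCNB2: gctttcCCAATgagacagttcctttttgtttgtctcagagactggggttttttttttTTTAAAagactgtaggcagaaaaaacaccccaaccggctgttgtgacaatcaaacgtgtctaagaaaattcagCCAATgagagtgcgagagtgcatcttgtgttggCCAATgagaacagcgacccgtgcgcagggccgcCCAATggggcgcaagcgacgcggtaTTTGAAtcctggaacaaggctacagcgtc
CCNA2: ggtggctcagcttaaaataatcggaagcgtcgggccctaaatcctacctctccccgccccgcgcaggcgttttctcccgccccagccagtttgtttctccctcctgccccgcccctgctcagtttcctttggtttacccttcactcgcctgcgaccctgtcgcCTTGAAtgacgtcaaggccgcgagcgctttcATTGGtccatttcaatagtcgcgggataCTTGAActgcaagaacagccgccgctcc
CCNE1: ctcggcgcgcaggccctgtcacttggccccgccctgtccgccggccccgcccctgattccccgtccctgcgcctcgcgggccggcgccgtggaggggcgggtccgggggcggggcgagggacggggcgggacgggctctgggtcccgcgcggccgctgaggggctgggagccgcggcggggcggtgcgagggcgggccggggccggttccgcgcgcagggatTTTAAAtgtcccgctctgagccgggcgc

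A CHR spelling began 30 bases before the start of CCNB1, 29 before that of CCNB2, 28 before that of CCNA2 and 28 before that of CCNE1. CCAAT boxes lay upstream of it in the 3 genes with lower signal: they began 55 and 87 bases before the start of CCNB1, 54, 87, 120 and 244 before that of CCNB2, and 56 before that of CCNA2. The CCNE1 window held no CCAAT box. CCNB2 and CCNA2 each held another CHR spelling, 193 and 87 bases before the start. Such short spellings are common: of 35116 windows of 250 bases, 29.1% held a CHR, 32.0% a CCAAT box and 10.2% both, and 1.03% held a CHR beginning 28 to 30 bases before the start, a range taken after these positions were seen. An E2F site was searched on both strands as TTTGGCGC and as the related spelling TTTGCCGC. With other middle bases it was searched as TTTCGCGC and finally also as TTTCCCGC. It was present in 2.79% of windows and in none of those searched for the members. No spelling of the different motifs overlapped in the printed sequences. The windows of CDK4 (1) and CDK6 (2) held no spelling of any motif, and of 3 windows for CCND3, 2 held 1 CCAAT box each and none a CHR. No window of CCND1, CCND2 or CCNE2 was searched, so the motif counts for the members do not cover these genes. A match is a run of letters and not a measured binding site.

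**Figure D1:**
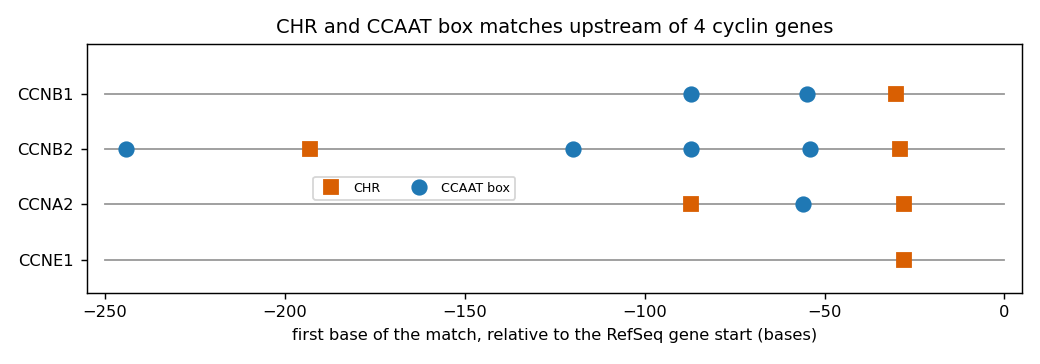
Positions of CHR (squares) and CCAAT box (circles) matches in the 250 bases before the gene start of CCNB1, CCNB2, CCNA2 and CCNE1; the horizontal axis is the first base of each match relative to the start, in bases. All 4 genes have a CHR match 28 to 30 bases before the start, and the CCAAT boxes lie in CCNB1, CCNB2 and CCNA2.

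The arrays reported linear MAS5 signal. Signals below a floor of 11.7 were set to it, and a probe set or gene was compared only if its mean log2 signal over the 3 arrays reached 5.39, the median of all probe sets, which is a signal of 42. Each gene was read from its probe set with the highest mean. All 10 members and 21 of their 27 probe sets passed, among 12307 genes and 27307 probe sets. The trimmed mean was 497 on each array and the median over all genes was -0.02 on the log2 scale with SETD8-1 and -0.01 with SETD8-2, so the classes are read against a centre close to 0. KMT5A, the targeted gene, had 431.4 with SETD8-1 and 584.1 with SETD8-2, against 938.9 with the control siRNA, on the probe set with its largest decrease. Over its 4 probe sets the mean log2 fold change was -0.64 ± 0.32 with SETD8-1 and -0.39 ± 0.23 with SETD8-2 (SD). All were lower than the control. Only the probe set with the largest decrease was 2-fold lower with SETD8-1 (-1.12), and none was with SETD8-2. By that probe set, 8.71% of genes in the same quartile of signal were as low as KMT5A with SETD8-1 and 14.9% with SETD8-2. All 11 fibroblast markers were above the filter, with medians of 0.09 and 0.04. With SETD8-1, 1 was at least 2-fold lower (DCN, -1.37), where 7.75% of all genes were. With SETD8-2, 1 was at least 2-fold higher (S100A4, 1.68), where 4.46% of all genes were. Both counts are near the background. Of 6 endothelial markers 3 were above the filter. PECAM1 (1.46) and VWF (1.13) were at least 2-fold higher with SETD8-1, where 5.48% of all genes were. Both were dim, with 49.0 and 59.7 in the control. TEK, the brightest of the 3, had 0.03 with SETD8-1 and 0.70 with SETD8-2. The part of these markers in the cyclin results was not tested. In bulk RNA, fewer cells at a stage of the cycle and less RNA per cell cannot be told apart.

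The class medians lay apart with each siRNA. CCNE1, at 0.06 with SETD8-1 and 0.11 with SETD8-2, lay nearer to the D cyclins than to the rest of its class. With SETD8-1 it was above a CCND1 probe set (-0.04). Of the 5 E, A and B cyclin genes, 4 were at least 2-fold lower with SETD8-1, where 7.75% of all genes were, and 4 with SETD8-2, where 6.65% were. None of the 3 D cyclin genes was lower by that size with either siRNA, which for 3 genes is near the background. The median log2 fold change of the E, A and B cyclins was -2.63 with SETD8-1 and -2.37 with SETD8-2, and that of the D cyclins was 0.27 and 0.90 in the same order. The D cyclin median thus lay 2.91 above the E, A and B cyclin median with SETD8-1 and 3.26 above it with SETD8-2, on the log2 scale. Both comparisons use the same control array and are not independent of each other. By probe sets above the filter, 7 of 8 for the E, A and B cyclins were at least 2-fold lower with SETD8-1 (7.61% of all probe sets) and 7 with SETD8-2 (6.02%). The exception was the CCNE1 probe set. No D cyclin probe set above the filter was 2-fold lower with either siRNA, an absence that is also near the background.

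**Figure D2:**
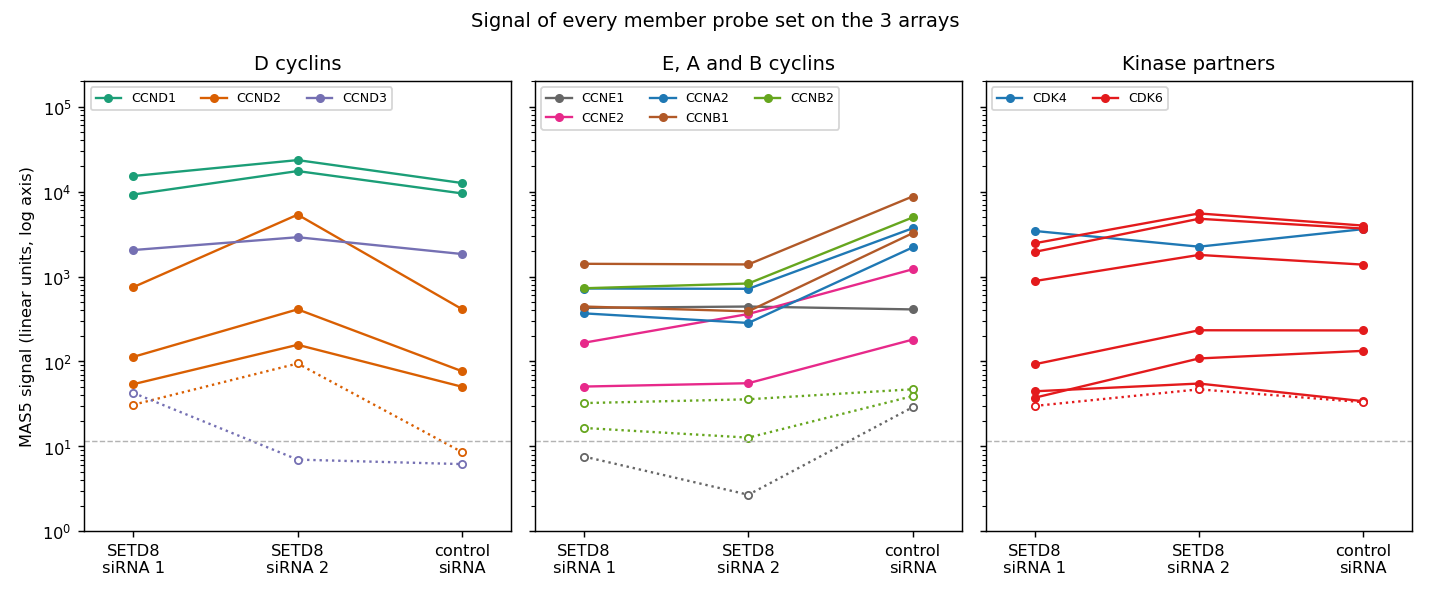
MAS5 signal (linear units on a log axis) of all 27 member probe sets on the arrays of SETD8-1, SETD8-2 and the control siRNA; each line joins the values of 1 probe set, filled points and solid lines passed the filter, open points and dotted lines did not, and the dashed line is the floor of 11.7. The lines of CCNA2, CCNB1, CCNB2 and CCNE2 are highest on the control array, while those of CCND2 peak with SETD8-2.

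Both B cyclins were over 5-fold lower than in the control on their brightest probe sets. CCNB1, the main mitotic partner of CDK1, had 1412.1 with SETD8-1 and 1388.1 with SETD8-2, against 8748.9 with the control siRNA. Its signal was 6.20-fold and 6.30-fold lower, and the SETD8 siRNA arrays were near each other. The other CCNB1 probe set had 443.5 and 389.4, against 3232.7 in the control, so the mean log2 fold change was -2.75 ± 0.17 with SETD8-1 and -2.85 ± 0.28 with SETD8-2 (SD over 2 probe sets). CCNB2, the second B cyclin of dividing cells, had 728.0 with SETD8-1 and 828.0 with SETD8-2, against 4952.5 with the control siRNA. That is a log2 fold change of -2.77 and -2.58. The other probe sets of CCNB2 were below the filter. One had 32.4 and 35.9, against 47.1 in the control, and the other had 16.5 and 12.7, against 39.1 in the control. Both were lowest in the SETD8 siRNA arrays, by less than the bright one, and averaging all 3 probe sets gave CCNB2 -1.52 with SETD8-1 and -1.53 with SETD8-2.

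CCNA2, the cyclin of S phase and G2, had 722.9 with SETD8-1 and 716.4 with SETD8-2, against 3697.0 with the control siRNA. On its other probe set it had 368.5 and 284.2, against 2197.6 in the control. Both probe sets were low with either SETD8 siRNA, and the mean log2 fold change was -2.47 ± 0.16 with SETD8-1 and -2.66 ± 0.41 with SETD8-2 (SD over 2 probe sets). Ordered from the most negative of 12307 genes, CCNB1 was at place 104 with SETD8-1 and 81 with SETD8-2, CCNB2 at 88 and 91, and CCNA2 at 158 and 125. On the brightest probe sets of these 3 genes the SETD8 siRNA arrays differed by 0.19 or less on the log2 scale. On the second CCNA2 probe set they differed by -0.37, SETD8-2 minus SETD8-1. The median gene of all differed by 0.33. In the same quartile of signal the median was 0.30 for CCNA2 and CCNB2 and 0.25 for CCNB1. In that of CCNB2, 67.6% of genes were at least as far apart, so this likeness is common.

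The E cyclins split. CCNE2 had 166.5 with SETD8-1 and 362.2 with SETD8-2, against 1216.5 with the control siRNA, a log2 fold change of -2.87 and -1.75. Its second probe set had 50.7 and 55.5, against 180.8 in the control, or -1.83 and -1.70. The decrease was thus present on both probe sets, while the gap between the SETD8 siRNAs was 1.12 on the first and 0.13 on the second. CCNE1, the other E cyclin, had 427.3 with SETD8-1 and 443.5 with SETD8-2, against 410.2 with the control siRNA. These are log2 fold changes of 0.06 and 0.11, and all 3 arrays were alike. A second CCNE1 probe set was below the filter, with 7.6 and 2.7 against 28.9 in the control, so both SETD8 siRNA arrays were under the floor. Averaging both CCNE1 probe sets gave -0.62 and -0.60. The direction for CCNE1 is therefore not settled, and neither averaged value reached 2-fold.

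**Figure D3:**
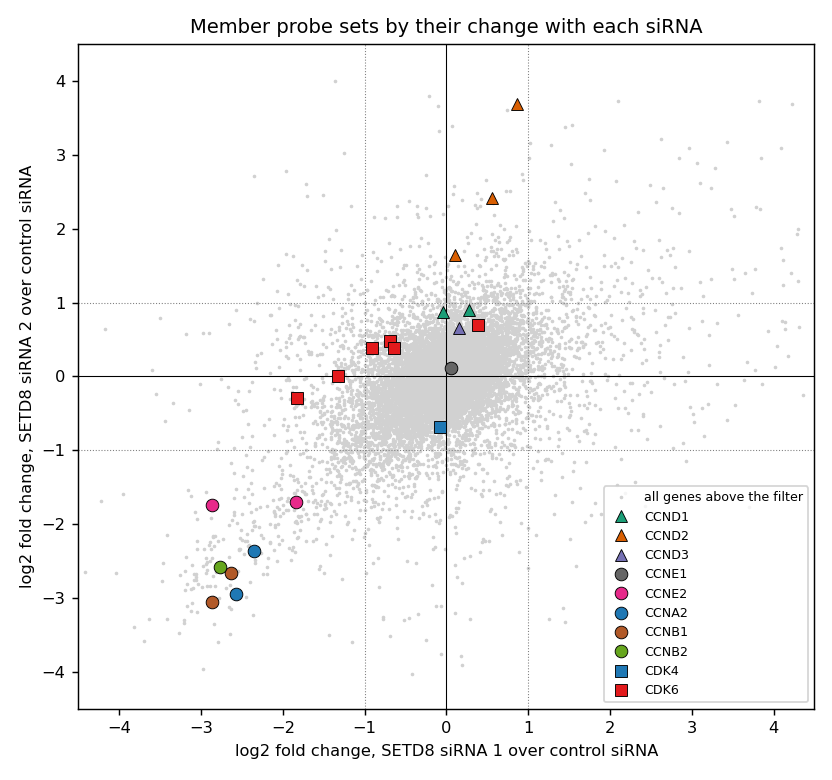
Log2 fold change over the control siRNA with SETD8-1 (horizontal) and SETD8-2 (vertical) for the 21 member probe sets above the filter (triangles D cyclins, circles E, A and B cyclins, squares kinase partners) over all 12307 genes (grey, 1 probe set each, of which 34 lie outside the axes). Dotted lines mark 2-fold. Both axes share the control array. CCNA2, CCNB1, CCNB2 and CCNE2 lie at the lower left, CCNE1 at the centre and CCND2 at the top.

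CCND2 was higher with SETD8-2. No D cyclin was 2-fold lower. Of all genes 7.75% were with SETD8-1 and 6.65% with SETD8-2, so this absence among 3 genes is near the background. CCND2 had 751.7 with SETD8-1 and 5348.7 with SETD8-2, against 414.5 with the control siRNA. The SETD8-2 array stood apart from both others. The log2 fold change was 0.86 with SETD8-1 and 3.69 with SETD8-2, a 12.9-fold higher signal in the second case. In that comparison CCND2 was at place 9 from the highest of 12307 genes, and it had the highest value of the 3076 genes in its quartile of signal. The further CCND2 probe sets repeated the pattern at lower signal. The second had 113.5 and 410.9, against 77.0 in the control, and the third 54.1 and 157.2, against 50.5 in the control. Their log2 fold changes were 0.56 and 0.10 with SETD8-1, and 2.42 and 1.64 with SETD8-2. The last was below the filter, with 31 and 94.7 against 8.6 in the control, and is at least 8.09-fold higher with SETD8-2 if the control is put at the floor. Over the 3 probe sets above the filter the mean log2 fold change was 0.51 ± 0.38 with SETD8-1 and 2.58 ± 1.04 with SETD8-2 (SD over 3 probe sets).

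Every CCND2 probe set carries a suffix that marks probes shared between transcripts, so CCND2 has no value once such probe sets are left out. CCND2 was the 1 D cyclin gene at least 2-fold higher with SETD8-2, where 4.46% of all genes were, and no D cyclin gene was with SETD8-1, where 5.48% were. By probe sets, 3 of 6 were 2-fold higher with SETD8-2, all of CCND2, against 4.28% of all probe sets. On that array 2 of the 3 epithelial markers above the filter, KRT8 and KRT18, were also at least 2-fold higher than in the control. The summed signal of 7 epithelial markers was 3198.3 with SETD8-1 and 6508.7 with SETD8-2, against 3357.0 with the control siRNA. Most of that sum was KRT18, with 2962.8 and 6010.1, against 2987.4 in the control. Only 3 of the 7 (EPCAM, KRT8 and KRT18) were above the filter, EPCAM having -1.68 with SETD8-1 and 0.31 with SETD8-2 on the log2 scale, and CDH1, KRT5, KRT14 and KRT19 were not. The part of other cells in the CCND2 value was not tested.

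CCND1, the major D cyclin of fibroblasts, had 15259.7 with SETD8-1 and 23466.9 with SETD8-2, against 12616.0 with the control siRNA. Its second probe set had 9230.7 and 17430.8, against 9521.4 in the control. The SETD8-2 array was highest on both, and the other arrays were near each other. The mean log2 fold change was 0.11 ± 0.23 with SETD8-1, where the probe sets differed in sign, and 0.88 ± 0.02 with SETD8-2 (SD over 2 probe sets). CCND3, the third D cyclin, had 2051.3 with SETD8-1 and 2901.5 with SETD8-2, against 1841.3 with the control siRNA, a log2 fold change of 0.16 and 0.66. A dim CCND3 probe set below the filter was highest with SETD8-1, with 42.6 and 7.0 against 6.2 in the control. Without CCND2, the D cyclin median was 0.22 with SETD8-1 and 0.78 with SETD8-2. All 6 D cyclin probe sets above the filter were higher than the control by any size with SETD8-2, as were 48.4% of all probe sets, and 5 of them were with SETD8-1, as were 46.4%.

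No kinase partner of the D cyclins was 2-fold different from the control on its brightest probe set. Of all genes, 7.75% were lower by that size with SETD8-1 and 6.65% with SETD8-2, and 5.48% and 4.46% were higher. The absence of a call among 2 genes is thus near the background. CDK6 had 2467.2 with SETD8-1 and 5527.6 with SETD8-2, against 3977.1 with the control siRNA. SETD8-1 was the lowest array and SETD8-2 the highest. The same order was seen on the next probe sets, with 1952.0 and 4786.3 against 3669.6 in the control, and with 884.9 and 1796.4 against 1380.7 in the control. Another had 92.8 and 233.2, against 231.9 in the control, and the next 37.5 and 108.6, against 133.4 in the control. The sixth was highest with SETD8-2 and lowest in the control, with 44.6 and 55.0 against 34.1 in the control. Over these 6 probe sets the mean log2 fold change was -0.83 ± 0.75 with SETD8-1 and 0.27 ± 0.36 with SETD8-2 (SD over 6 probe sets). With SETD8-1, 2 of these, the dimmer ones with 92.8 and 37.5, were at least 2-fold lower, where 7.61% of all probe sets were. The seventh was below the filter, with 30 and 47.0 against 33.2 in the control. CDK4 had a single probe set, with 3436.5 with SETD8-1 and 2246.0 with SETD8-2, against 3613.0 with the control siRNA. Its log2 fold change was -0.07 and -0.69, so the lower array was SETD8-2.

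Set directly against each other, the SETD8 siRNA arrays differed for the D cyclins and CDK6 in 1 direction. All 6 D cyclin probe sets and all 6 CDK6 probe sets above the filter were higher by any size with SETD8-2 than with SETD8-1, as were 50.9% of all probe sets. Probe sets of the same gene are not separate observations. Of the dim ones below the filter, those of CCND2 (1.61) and CDK6 (0.65) went the same way and that of CCND3 (-1.86) the other way. The log2 difference, SETD8-2 minus SETD8-1, was 2.08 ± 0.67 for CCND2 (SD over 3 probe sets), 1.11 ± 0.43 for CDK6 (SD over 6 probe sets) and 0.77 ± 0.21 for CCND1 (SD over 2 probe sets). It was -0.61 for CDK4. Of the genes in the same quartile of signal, 0.618% were as far apart between these arrays as CCND2, 4.78% as CDK6, 16.2% as CCND1, 16.4% as CDK4 and 22.3% as CCND3. At least 2-fold apart were 3 of the 10 members (CCND2, CCNE2 and CDK6), where 12.6% of all genes were, and 9 of their 21 probe sets, where 12.3% of all probe sets were. Probe sets of 1 gene share the RNA of the same 3 cultures, so their SD holds no spread between cultures.

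**Figure D4:**
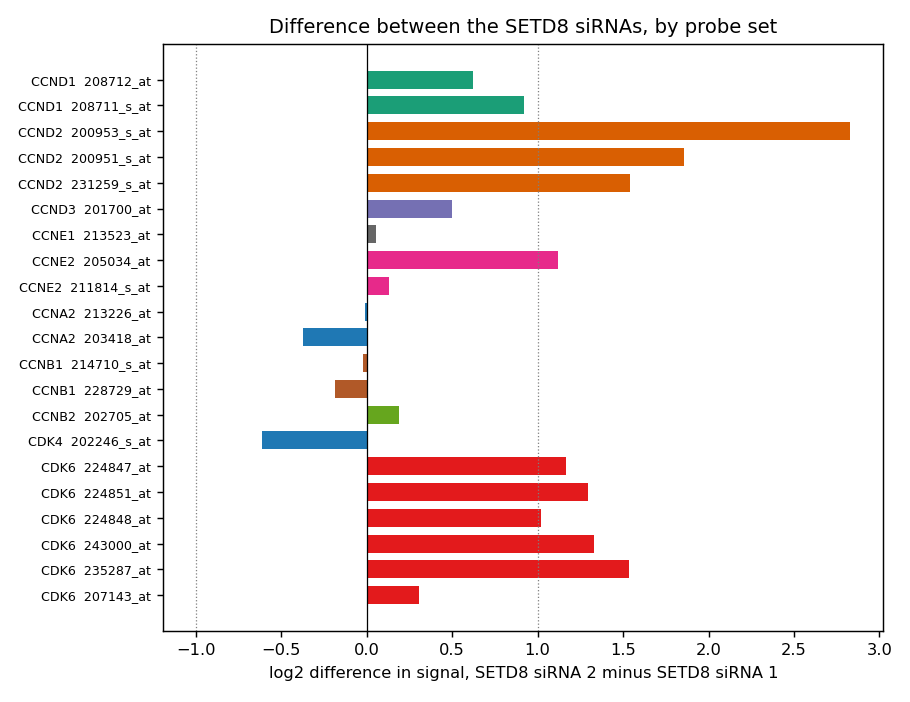
Log2 difference in signal, SETD8-2 minus SETD8-1, for each of the 21 member probe sets above the filter; bars are single values without replicates, and dotted lines mark 2-fold. The bars of CCND2 and of 5 CDK6 probe sets pass 1 to the right, with the first CCNE2 probe set, while those of CCNA2, CCNB1 and CCNB2 lie between -0.37 and 0.19.

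By the pair of log2 fold changes over 3 arrays, the gene nearest to CCNB2 was TACC3 at a distance of 0.016, followed by POLQ and MND1. Nearest to CCNB1 were CDCA7 (0.079), SPAG5 and MND1, and nearest to CCNA2 were CCNF (0.086), GINS3 and DDIAS. CCNE2 had CDK1 (0.175), CENPI and MTFR2, and CCND2 had PDE11A (0.146), PODXL (0.555) and GCNT2 (0.665). The measure is a distance on the log2 scale and rests on single arrays.

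Other genes of the cyclin and kinase system were counted from lists drawn up by function, with earlier results of these arrays known. Of 17 further cyclins above the filter, 1 was at least 2-fold lower with each SETD8 siRNA and none higher, with medians of -0.03 and -0.05; of all genes 7.75% were lower with SETD8-1 and 6.65% with SETD8-2, so this count is near the background. That gene was CCNF, a cyclin that serves as an F-box subunit of a ubiquitin ligase, with 110.6 and 101.7, against 534.6 in the control. Of 15 further cyclin-dependent kinases, 3 were lower with SETD8-1 and 1 with SETD8-2, against the same 7.75% and 6.65% of all genes, with medians of -0.02 and -0.26. The count with SETD8-2 is at the background. CDK1, the partner of the B cyclins, had 802.3 and 1552.4, against 5885.8 in the control. CDK2, the partner of the E cyclins, had 1234.5 and 1451.7, against 2751.4 in the control, or -1.16 and -0.92.

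Most direct activators and brakes of the cyclin-kinase pairs were lower. Of 9, 8 were at least 2-fold lower with SETD8-1 (7.75% of all genes) and 7 with SETD8-2 (6.65%), none was higher, and the medians were -1.46 and -1.44. The phosphatase CDC25C, which activates CDK1, had 59.7 and 88.5, against 571.2 in the control. CDKN3, a phosphatase that acts on cyclin-dependent kinases, had -2.86 and -2.99 on the log2 scale. PKMYT1, an inhibitory kinase of CDK1, had -2.11 and -1.83, and the kinase-binding subunit CKS1B had -1.83 and -1.54. Of 11 genes that mark cyclins for destruction, those past 2-fold were CDC20 and UBE2C under either siRNA, SKP2 (-1.17) with SETD8-1 and UBE2S (-1.21) with SETD8-2, and the medians were -0.43 and -0.41. CDC20, an activator of the anaphase promoting complex, had 246.1 and 401.4, against 2738.9 in the control, and UBE2C, a ubiquitin-conjugating enzyme of that complex, had 740.2 and 917.3, against 5631.3 in the control.

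Of 13 RB and E2F family genes, 2 were lower with SETD8-1, where 7.75% of all genes were, and 3 with SETD8-2, where 6.65% were, with medians of -0.58 and -0.27. E2F8, a repressor of the family, had -3.13 and -2.87, and RBL1, which encodes the RB relative p107, had -3.05 and -1.93. Of 6 inhibitors of cyclin-dependent kinases, none was lower with SETD8-1 and 2 were with SETD8-2, and 3 and 1 were higher in the same order (5.48% and 4.46% of all genes), with medians of 0.67 and 0.11. CDKN2A, whose product p16 blocks CDK4 and CDK6, was the 1 inhibitor past 2-fold with both. It had 1040.0 and 1114.8, against 432.5 in the control. The others passed with 1 siRNA only. CDKN2B (3.31) and CDKN1A (1.38) were higher with SETD8-1, and CDKN1B (-1.33) and CDKN1C (-1.05) lower with SETD8-2.

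**Figure D5:**
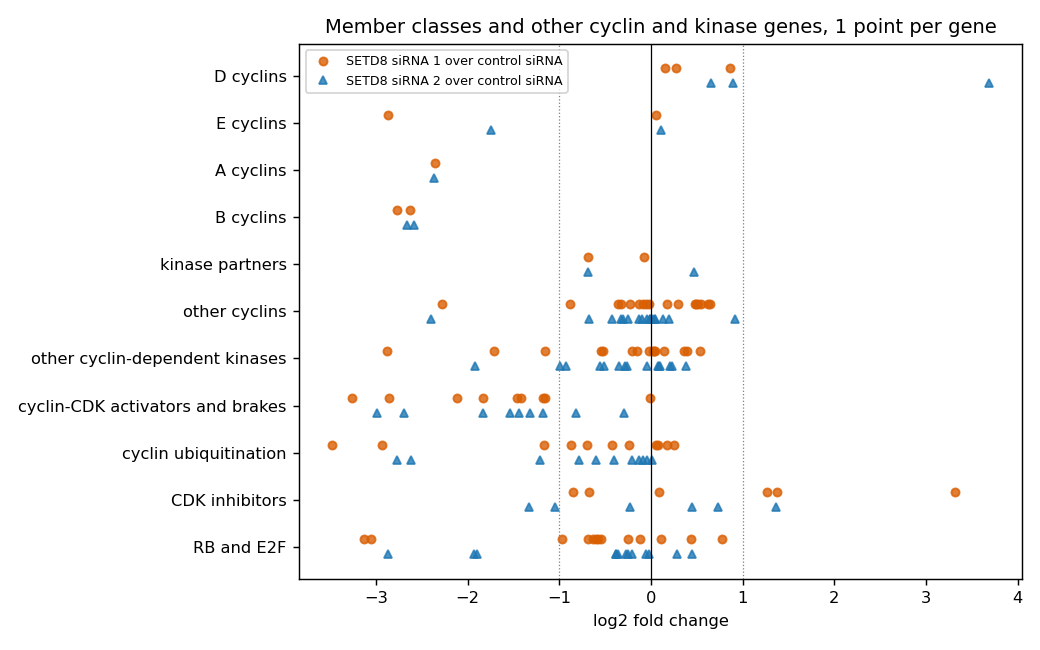
Log2 fold change over the control siRNA with SETD8-1 (circles) and SETD8-2 (triangles) for the member classes and 6 lists of related genes, 1 point per gene above the filter and siRNA; dotted lines mark 2-fold. The A and B cyclins and CCNE2 lie left of -1 together with most activators and brakes, while most other cyclins and kinases lie near 0.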

How the data were processed

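IMR-90 RNA was labelled with biotin from 250 ng and hybridised to 3 Affymetrix arrays, 1 per siRNA. The deposited intensity values are linear signals, which the authors computed in MAS5 (per the submitters' processing notes). No version or scaling target was given in the sources used here. Such scaling would hide a shift of all genes.

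Probe sets were named by GEO's platform annotation, with symbols updated by gene number to RefSeq (GRCh38.p14; 41037 of 41091 matched); 1801 with several symbols were left out and 11721 are unnamed. Signals under 11.7 (the 25th percentile) were floored before log2, and the filter on mean log2 signal was the median. Calls were at least 2-fold, with no test. The alternatives tried were a pseudocount of 16, scaling by the median, quantile normalization, other filters, other fold thresholds, averaged probe sets, and shared probe sets left out. The calculation was tested on simulated data. Members and lists were chosen with earlier results of these data known. The named genes were the members, KMT5A, up to 4 genes per list past 2-fold with both siRNAs, and the 3 genes nearest to each member past 2-fold with either. CDK2, SKP2, UBE2S, CDKN2B, CDKN1A, CDKN1B, CDKN1C and the markers were named outside that rule, after their values were seen. Of the listed genes other than the markers, CDK3, CDK11B, CDK18, CDKN2C, CCNA1 and CCNO had no probe set above the filter and are not analysed here. Python 3.11.15, numpy 2.4.6, pandas 2.3.3 and matplotlib 3.10.9 were used.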

Additional observations from a re-analysis of the deposited data

How the results depend on the processing

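With 1 array per siRNA no replicate could be left out. The E, A and B cyclin median lay between -2.77 and -2.35 with SETD8-1 and between -2.38 and -1.73 with SETD8-2 over the alternatives, and 4 of the 5 genes stayed at least 2-fold lower with each siRNA at every setting, the 1.5-fold and 3-fold thresholds included. The D cyclin median was positive throughout, from 0.16 to 0.73 with SETD8-1 and from 0.78 to 0.94 with SETD8-2. Averaging the probe sets of a gene moved the most: the D cyclin median became 0.73 with SETD8-1, the E, A and B cyclin median became -1.73 with SETD8-2, the difference between the classes became 2.61 with SETD8-2, CCNB2 became -1.52 with SETD8-1 and -1.53 with SETD8-2, and CCND3 (1.01) made 1 D cyclin gene at least 2-fold higher with SETD8-1. Averaging also moved CCND2 from 3.69 to 2.69 with SETD8-2 and CCNE2 from -2.87 to -2.35 with SETD8-1. The CCNB2 and CCND3 values rest on dim probe sets. The count of D cyclin genes higher with SETD8-2 was 0 without shared probe sets, which leaves no CCND2 probe set. At 1.5-fold it was 3, and 1 with SETD8-1. The share of all genes past 1.5-fold or 3-fold is not given here, so counts at these thresholds cannot be set against the background. No called member turned its sign, and CCNE1, under 2-fold, turned to negative when averaged. Array signal limits the dim probe sets: 6 of 27 lay below the filter.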
